A study of Homo sapiens with 24 samples.

Results

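Most genes described here encode the machinery of translation: initiation factors (EIF symbols), elongation factors (EEF), the release factor GSPT2, cytoplasmic poly(A)-binding proteins (PABPC), La-related proteins (LARP) and aminoacyl-tRNA synthetases (symbols ending in ARS, or in ARS2 for those of mitochondria). They were chosen by gene symbol from the catalog probes of the array, which target annotated mRNAs. The rule found 85 of 17535 catalog probes, for 72 of 15102 gene names. Of the 72 genes, 63 had 1 probe, 5 had 2 and 4 had 3. The symbol rule also took in the eIF2-alpha kinases EIF2AK2 and EIF2AK4, the exon junction helicase EIF4A3 and EIF2C4, an older name of the Argonaute gene AGO4. Of 20 central names looked for by name, 12 were found, and EIF2S1, EIF2AK1, EIF2AK3, EIF4EBP1, EIF5, ETF1, GSPT1 and EPRS had no catalog probe among the members.

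Translation starts when eIF2 brings the initiator tRNA to the small ribosomal subunit, eIF1 and eIF1A help the subunit find the start codon, and eIF3 holds the assembly together. The cap-binding protein eIF4E, the scaffold eIF4G and the helicase eIF4A recruit the mRNA, and the poly(A)-binding protein joins its tail to that complex. Stress slows initiation through the kinases that phosphorylate eIF2-alpha and through the withdrawal of mTOR signalling, which acts on eIF4E and on LARP1. The mRNAs of many elongation factors and of some initiation factors begin with a run of pyrimidines (a 5′ terminal oligopyrimidine, or TOP, start), and their loading with ribosomes follows mTOR activity. Several cytosolic synthetase genes are known targets of ATF4, the transcription factor made when eIF2-alpha is phosphorylated.

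MRC5, an established line of human lung fibroblasts, was either left untreated (control) or given 0.2 mM hydrogen peroxide for 2 hours (oxidative stress, OS), and all cells compared received cycloheximide, which holds ribosomes on mRNA, before harvest. Whole-cell RNA and RNA pooled from sucrose gradient fractions 1 to 9 (untranslated pool), 10 to 14 (low pool, few ribosomes) and 15 to 23 (high pool, many ribosomes) were labelled from oligo-dT and hybridised singly. These were 8 groups of 3 arrays. The methods give a separate RNA preparation for each of 3 repeats, while the labels do not say whether these came from separate cultures. The p-values measure the spread between these arrays, and 3 arrays a group limit the precision. Control untranslated arrays 1 and 2 share a label number, and the labels do not say whether they came from separate preparations. A change in bulk RNA cannot tell fewer cells of a kind from less RNA per cell.

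Values are log2 of the normalized signal, so a difference of 1 is a doubling. The normalization gives every array the same distribution of catalog probes, and each difference is therefore relative to the other catalog mRNAs of that array and not an amount of RNA. Each difference is given ± its standard error from limma, fitted over all 24 arrays, with p-values adjusted by Benjamini-Hochberg over all probes tested, and "called" means an adjusted p under 0.05. Tests were run on probes that, in 1 or more of the groups compared, stood well above background on all 3 arrays. Levels of different probes are not comparable with each other. EIF1AY is counted among the members below but its values are not given.

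Between 70 and 79 member probes were well above background on 23 of the arrays. The OS low pool array of replicate 3 stood apart with 83, and with 95.4% of catalog probes above background against 43.4% to 67.7% on the others. There 14 member probes lay more than 1 log2 unit below, and 1 above, both other replicates. On control total RNA array 1 probes for HARS, IARS, EIF4EBP2 and EIF4ENIF1 lay more than 1 unit below the other 2 arrays. All 8 probes for fibroblast markers were above background on every total RNA array, as were 3 of 5 epithelial (KRT8, KRT18 and SFTPC), 1 of 4 endothelial and 1 of 3 leukocyte probes. None of these epithelial, endothelial or leukocyte probes was called in total RNA, where 3.07% of catalog probes rose. SFTPC was near the threshold at 0.99 ± 0.32 (adjusted p = 0.0685, limma). At an unadjusted p under 0.05, 2 of the 3 epithelial probes were higher. Without the OS low pool array that stood apart 1 of them was called higher, against 5.67% of catalog probes in that fit. The stress-response gene ATF3 rose in total RNA by 4.70 to 4.83 on 3 of its 4 probes. The fourth ATF3 probe differed by 0.66 ± 0.32 and was not called. Upon OS the fibroblast probes rose in 6 of 8 cases in the untranslated and in 5 of 8 in the high pool. In the shift from the high pool defined below, 3 of the 8 fibroblast probes moved away and 1 toward, with a median of −0.68 and 7 of 8 estimates negative, and 1 of 3 epithelial probes tested moved away. Their part in the results below was not tested.

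In total RNA upon OS few member probes were called, as was so for catalog probes at large. Of 77 member probes tested with limma, 0 were called higher, against 3.07% of all catalog probes, and 2 were called lower, against 3.06%. At an unadjusted p under 0.05 there were 3 higher and 7 lower. A fit without moderated variances called 0 higher and 4 lower, and a fit of the 2 total RNA groups alone called 3 higher, against 8.83% of all catalog probes in that fit, and 11 lower, against 16.1%. Without the OS low pool array that stood apart, 0 were called higher, against 5.67% of catalog probes in that fit, and 6 lower, against 7.71%. In the main fit the member median was 0.02 and that of all catalog probes −0.02.

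The 2 probes that fell were for EIF4G3, a scaffold of the cap-binding complex, and LARP4B, an RNA-binding La-related protein. EIF4G3 (probe A_23_P126241) read 12.25, 12.09 and 12.10 on the control arrays and 11.71, 11.73 and 11.52 upon OS. LARP4B read 11.96, 11.85 and 11.90 in control cells and 11.47, 11.61 and 11.54 upon OS. In both genes every OS array lay below every control array. The differences were −0.50 ± 0.14 (adjusted p = 0.0357, limma) and −0.36 ± 0.10 (adjusted p = 0.0247, limma). The other EIF4G3 probes tested gave −0.44 ± 0.21 and 0.77 ± 0.38 and were not called. With any 1 of the 6 total RNA arrays left out, 0 or 1 member probes were called lower.

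Near the threshold were EIF1AD, an eIF1A-like protein, with −0.41 ± 0.13 (adjusted p = 0.0579, limma), and EIF2AK4, the amino acid sensing kinase GCN2, with −0.30 ± 0.10 (adjusted p = 0.0621, limma). The synthetase HARS had one of the highest estimates, 2.85 ± 1.35 (adjusted p = 0.284, limma), which came from 1 array. Its control arrays read 4.52, 13.02 and 13.08 and its OS arrays 13.06, 13.05 and 13.06. Without control array 1 its difference was 0.01. Likewise IARS (A_23_P258964) read 3.52, 13.81 and 14.01 in control cells, and its difference of 3.24 became −0.22 without that array. EEF1A1, the elongation factor that delivers aminoacyl-tRNA, differed by 0.02 to 0.06 on its 3 probes, PABPC1 by −0.06 and EIF4E by 0.04 and 0.09, none of them called.

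In control cells the mRNAs of the machinery were spread over the gradient by family. Of 75 member probes tested, 40 were higher in the high than in the untranslated pool, against 42.2% of all catalog probes, and 20 were lower, against 31%. The member median was 0.69 and the catalog median 0.35. The direction depends on the scaling: with each array scaled to its 75th percentile the catalog median became 1.64 and the member counts 47 and 2, against 61% and 9.6% of catalog probes. Quantile normalization over all probes gave 50 and 11, against 55.7% and 20.3%, and normexp background correction 52 and 11, against 57.7% and 21.8%. Among probes well above background in both pools, 37 of 69 members were higher, against 38.8% of catalog probes, and 19 lower, against 39.6%, with a member median of 0.61 and a catalog median of 0.0019. The other 6 of the 75 passed the filter through 1 pool alone and stay in the family counts below. The order of the families along the gradient is described here under the main normalization. Other scalings did not move all probes by the same amount, and the order under them was not tested.

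**Figure D1:**
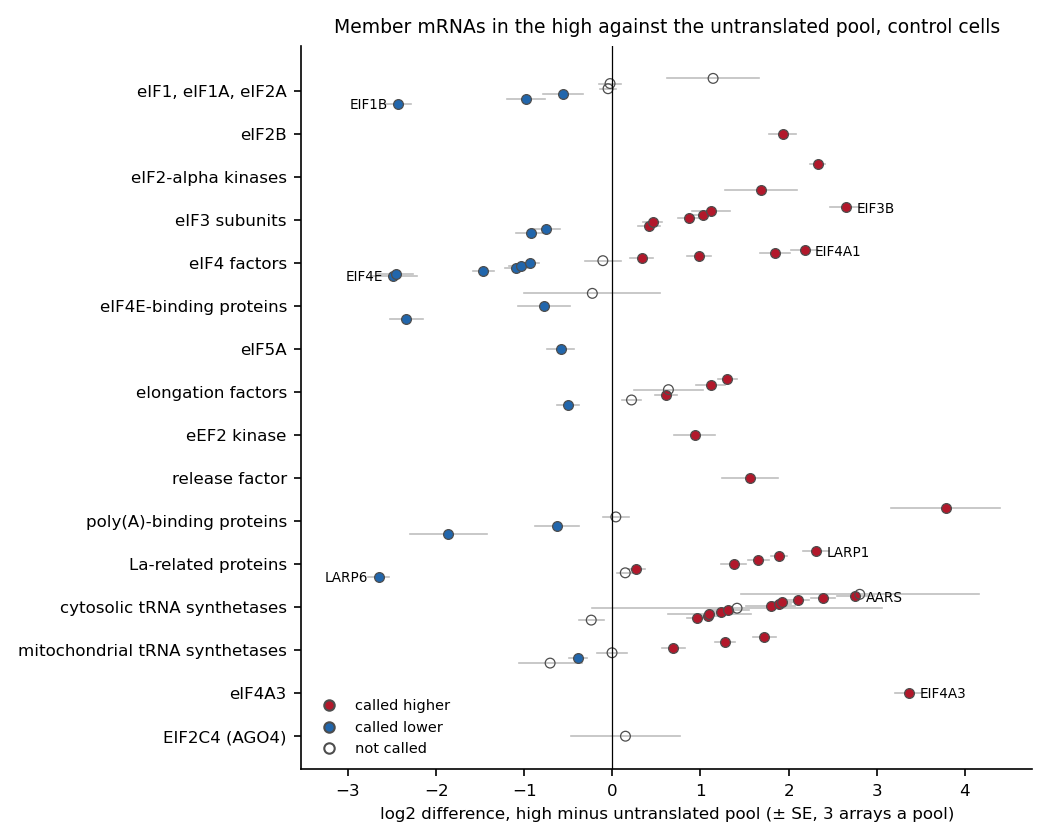
High minus untranslated pool in control cells, in log2 signal, for each member probe tested (EIF1AY and 1 other probe left out), by family, with ± SE from limma, 3 arrays a pool. Cytosolic synthetases lie mostly to the right of 0, while EIF4E, EIF1B and LARP6 lie below −2.

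Cytosolic synthetases, which load amino acids onto tRNA, lay mostly on the high side, with 11 of 14 probes called higher, 0 lower and a median of 1.61. The alanyl-tRNA synthetase AARS read 8.23, 7.70 and 8.19 in the untranslated pool and 11.07, 10.82 and 10.51 in the high pool. The pools did not overlap, and the difference was 2.76 ± 0.21 (adjusted p = 9.2e-10, limma). DARS (2.39 ± 0.13), RARS (2.11 ± 0.12), TARS (1.93 ± 0.13) and GARS (1.90 ± 0.13) were also called higher. MARS was the exception at −0.24 ± 0.14 and was not called. HARS had the highest estimate of the family, 2.81 ± 1.35, and was not called (adjusted p = 0.0778, limma). It read 11.43, 11.48 and 11.63 in the untranslated and 14.39, 14.35 and 14.23 in the high pool, without overlap. Its standard error is shared by all groups of the fit and takes in the 4.52 of control total RNA array 1, and with that array left out of the fit the difference was 2.81 ± 0.12 (adjusted p = 2.69e-12, limma). The IARS probe that was low on that array had 1.42 ± 1.65, not called, and 1.42 ± 0.13 (adjusted p = 4.03e-08, limma) with the array left out. Mitochondrial synthetases were divided, with 4 of 7 probes higher and 1, NARS2, lower at −0.39 ± 0.10.

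The cap-binding proteins lay at the other end. EIF4E, which binds the mRNA cap, read 11.51, 11.34 and 10.83 in the untranslated pool and 8.48, 8.83 and 8.98 in the high pool on probe A_32_P203300, a difference of −2.46 ± 0.20 (adjusted p = 3.83e-09, limma). The second EIF4E probe gave −2.49 ± 0.27. EIF4E2, a cap-binding relative, was lower by −1.46 ± 0.12 and −0.94 ± 0.10, and EIF4ENIF1, which binds eIF4E and carries it to the nucleus, by −2.34 ± 0.19 on 1 of its 2 probes. The partners of eIF4E lay on the high side instead. The helicase EIF4A1 was higher by 2.18 ± 0.15, with a probe that also lists the readthrough transcript SENP3-EIF4A1, the scaffold EIF4G1 by 1.84 ± 0.17 and EIF4G3 by 0.99 ± 0.14. EIF4B, which stimulates the helicase, was lower by −1.03 ± 0.14 and −1.09 ± 0.13.

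Of the probes for eIF1, eIF1A, the eIF1A-like EIF1AD and EIF2A, 4 of 7 were lower and 0 higher. EIF1B was lower by −2.43 ± 0.15 and EIF1AX by −0.98 ± 0.21 and −0.56 ± 0.23, while EIF1 differed by −0.05 ± 0.09 and was not called. Subunits of eIF3 went both ways, 6 of 8 higher and 2 lower, from EIF3B at 2.65 ± 0.18 down to EIF3J at −0.92 ± 0.17 and EIF3F at −0.75 ± 0.16. EIF2B2, a subunit of the exchange factor that recharges eIF2, was higher by 1.93 ± 0.15. Both eIF2-alpha kinases were higher, EIF2AK4 by 2.33 ± 0.09 and EIF2AK2 (PKR) by 1.68 ± 0.41, and so was the release factor GSPT2 by 1.56 ± 0.32. The highest estimate of a probe above background in both pools was that of EIF4A3, 3.36 ± 0.16 (adjusted p = 1.7e-12, limma), whose arrays read 11.60, 11.66 and 11.40 untranslated and 14.98, 14.98 and 14.80 high.

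Elongation factors were closer to the middle. EEF1D, a subunit of the exchange factor of eEF1A, was higher by 1.31 ± 0.11, and EEF1B2, another such subunit, was lower by −0.50 ± 0.13. EEF1A1 was higher by 1.12 ± 0.17 on 1 probe and not called on another. On the remaining probe, A_24_P763243, all 3 control high arrays sat at 18.91, the highest value the normalization gives, so its called 0.61 is not an exact difference, and it was −0.12 with 75th percentile scaling. EEF2, the translocase, was not called at 0.64 ± 0.39. Its kinase EEF2K, which slows elongation, was higher by 0.94 ± 0.24. Of the La-related proteins 5 of 7 probes were higher, led by LARP1 at 2.31 ± 0.15, and LARP6, which binds collagen mRNAs, was lower by −2.65 ± 0.12 (adjusted p = 1.01e-12, limma). PABPC1 differed by 0.04 ± 0.15 and PABPC3 was lower by −1.86 ± 0.44. PABPC4L, below background on all control untranslated arrays, read at least 2.46-fold higher in the high pool. It passed the filter through the high pool alone, which fixed its direction in advance. The probes for PABPC1 and PABPC3 each list both genes, so their signals cannot be assigned to either alone.

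Upon OS the machinery moved between the pools more often out of the high pool than into it. The shift is the high minus untranslated difference upon OS less that in control cells, so that a negative shift is a move away from heavy polysomes relative to other mRNAs. Of 76 member probes tested, 19 from 17 genes shifted away, against 8.03% of all catalog probes, and 6 from 5 genes shifted toward the high pool, against 8.04%. The member median was −0.28 and 51 of the 76 estimates were negative, while the catalog median was 0.02 with 5044 of 10369 negative. Within the 3 slides the member medians were −0.29, −0.43 and −0.25 and the catalog medians 0.07, 0.04 and 0.02. Without the OS low pool array that stood apart, 24 shifted away, against 14.4% of catalog probes in that fit, and 9 toward, against 16.7%. Among probes well above background in all groups compared, 22 of 69 members shifted away, against 13.2% of catalog probes, and 8 toward, against 15.4%. Scaling to the 75th percentile with that array kept ended all these calls, with 0 each way. Of catalog probes it called 0.0579% away and 0.0772% toward, and the member median was −0.44 and the catalog median −0.08. With that array left out this scaling gave 14 away and 2 toward, against 8.99% and 2.67% of catalog probes.

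**Figure D2:**
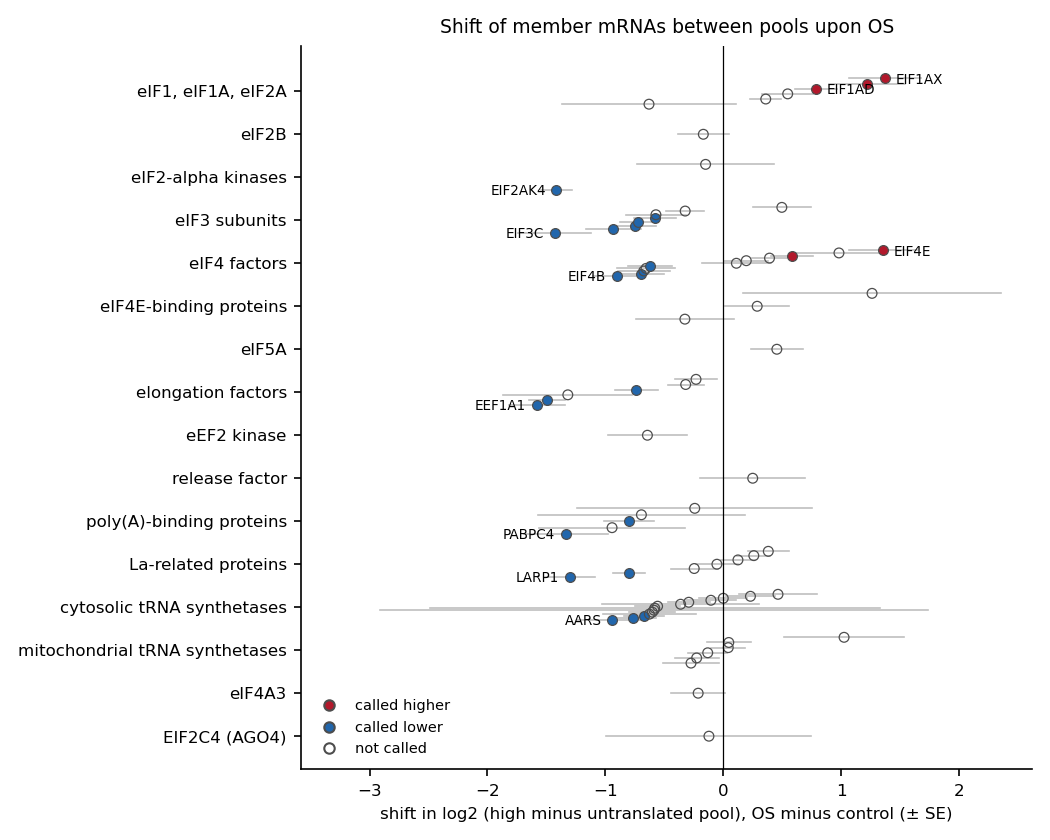
Shift upon OS for each member probe tested (EIF1AY and 1 other probe left out), by family, as the change in log2 (high minus untranslated pool), ± SE from limma over 3 arrays a group. Called points to the left of 0 are elongation factors, eIF3 subunits, EIF2AK4, EIF4B, EIF4G3, poly(A)-binding and La-related proteins and synthetases, and called points to the right are EIF1AD, EIF1AX, EIF4E and EIF4E2.

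Of 6 elongation factor probes 3 shifted away and 0 toward, with all 6 estimates negative and a median of −1.03. EEF1A1 (A_32_P15320) read 15.96, 16.08 and 16.21 in the control untranslated pool and 16.28, 16.39 and 16.37 in the OS one. In the high pool it read 17.40, 17.14 and 17.06 in control cells and 16.33, 15.77 and 15.54 upon OS. The high pool arrays of control and OS cells did not overlap, with all 3 OS arrays lower, while those of the untranslated pool lay slightly higher upon OS. The shift was −1.58 ± 0.24 (adjusted p = 0.000415, limma), made up of a fall of −1.32 ± 0.17 in the high pool (adjusted p = 4.59e-05, limma) and an uncalled 0.27 ± 0.16 in the untranslated pool.

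The other EEF1A1 probes gave smaller shifts, −0.74 ± 0.18 (adjusted p = 0.0149, limma) and −0.32 ± 0.15 (adjusted p = 0.235, limma). The former is the probe at the highest value on all 3 control high arrays, so that its control level there is capped. EEF1D read 15.42, 15.39 and 15.57 in the control untranslated pool against 16.14, 16.16 and 16.20 upon OS, and 16.76, 16.79 and 16.75 in the control high pool against 16.01, 16.14 and 15.78 upon OS. It rose in one pool and fell in the other with no overlap in either, and the shift was −1.50 ± 0.16 (adjusted p = 1.26e-05, limma). EEF2 had an estimate of −1.32 ± 0.55, but its arrays spread widely, from 14.13 to 15.34 in the control untranslated pool alone, and it was not called (adjusted p = 0.159, limma). EEF1B2 at −0.23 ± 0.18 and EEF2K at −0.64 ± 0.33 were not called.

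**Figure D3:**
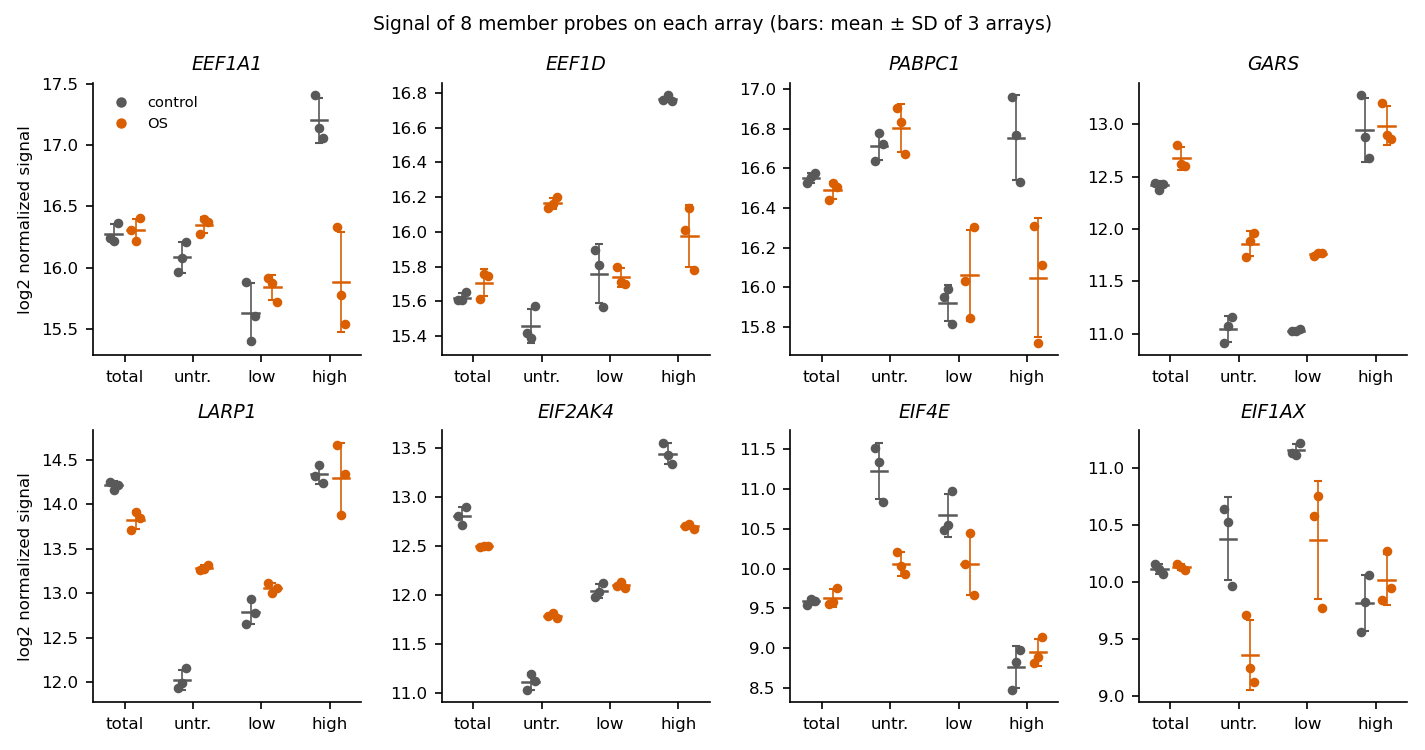
log2 normalized signal of 8 member probes on every array, by pool (untr. is the untranslated pool), in control (grey) and OS (orange) cells, with the mean ± SD of 3 arrays. The 3 OS high pool arrays lie below the 3 control ones for EEF1A1, EEF1D, PABPC1 and EIF2AK4. The 3 OS untranslated arrays lie above the control ones for GARS, LARP1, EEF1D, EIF2AK4 and, slightly, EEF1A1, and below them for EIF4E and EIF1AX.

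These elongation factors belong to the TOP mRNAs, a list of 12 genes known for that start, of which 10 had probes and 11 of their 13 probes were tested. Of the 11, 8 shifted away and 0 toward, and all 11 estimates were negative with a median of −0.80. Most called changes lay in the high pool, where 8 of 11 fell, against 2.83% of all catalog probes, and 0 rose, against 3.57%. In the untranslated pool 1 of 11, EEF1D, rose, against 15.8% of catalog probes, and 0 fell, against 15.7%. There too all 11 estimates went one way, upward, with a median of 0.23 and 4 at an unadjusted p under 0.05. Without the OS low pool array that stood apart, 2 rises were called in the untranslated pool. In total RNA 0 of the 11 were called either way with limma, near the catalog shares of 3.07% higher and 3.06% lower. At an unadjusted p under 0.05 there were again 0. The other called members of the list were PABPC1 (−0.80 ± 0.21), EIF3F (−0.93 ± 0.23), EIF3H (−0.72 ± 0.15) and EIF4B (−0.91 ± 0.20 and −0.62 ± 0.19).

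The starts of these mRNAs can be read from RefSeq promoter entries (GRCh38.p14), which were found for 58 member genes. The windows show 10 bases before the annotated start and 20 from it, with the run of pyrimidines that begins with C at the start in capitals. The first 4 belong to genes that shifted away and the last 2, which hold no such run, to genes that shifted toward the high pool.
EEF1A1, chr6:73521013-73521042, minus strand: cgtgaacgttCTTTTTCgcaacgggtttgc
EIF3F, chr11:7987327-7987356, plus strand: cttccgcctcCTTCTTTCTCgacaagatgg
EIF4B, chr12:53006446-53006475, plus strand: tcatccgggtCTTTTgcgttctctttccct
EIF3M, chr11:32583821-32583850, plus strand: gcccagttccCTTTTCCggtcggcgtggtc
EIF4E, chr4:98929114-98929143, minus strand: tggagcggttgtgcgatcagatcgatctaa
EIF1AX, chrX:20141819-20141848, minus strand: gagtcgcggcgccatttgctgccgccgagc

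Searched on the gene's own strand, a C at the start followed by at least 4 pyrimidines was present in at least 1 entry of 9 member genes. It was present in 1429 of 35116 promoters in all (4.07%). The former counts genes, some with several entries, and the latter single promoters, so the figures are not of like units. The 12 probes of those 9 genes had a median shift of −0.63, with all 12 negative, 6 called away and 0 toward. The 53 probes of the other 45 genes with an entry and a tested probe had a median of −0.12, with 30 negative, 8 called away and 6 toward. These are descriptions, and a start so written says nothing of which start the cells used. EEF2 (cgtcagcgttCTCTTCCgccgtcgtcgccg, chr19:3985444-3985473, minus strand) and EEF1B2 (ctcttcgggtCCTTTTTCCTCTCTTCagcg, chr2:206159885-206159914, plus strand) also carry such a run, and neither was called. EIF2AK4 and LARP1, which have no such run in RefSeq, shifted by −1.41 and −1.30.

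PABPC1, whose protein coats the poly(A) tail, read 16.96, 16.77 and 16.53 in the control high pool and 16.31, 15.72 and 16.11 upon OS. In the untranslated pool it read 16.64, 16.78 and 16.73 in control cells and 16.91, 16.84 and 16.67 upon OS. The high pool arrays did not overlap, although the gap between the nearest was small, and those of the untranslated pool did. The fall in the high pool was −0.71 ± 0.15 (adjusted p = 0.0057, limma). PABPC4 shifted away by −1.34 ± 0.36 (adjusted p = 0.0217, limma), with neither pool called alone. Of the 5 poly(A)-binding probes tested 2 were called, all 5 estimates were negative, and PABPC3 had −0.94 ± 0.62.

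Among eIF3 subunits, 5 of 8 tested probes shifted away and 0 toward, with a median of −0.65. EIF3C, part of the core of eIF3, moved furthest. It read 10.36, 10.51 and 10.55 in the control untranslated pool and 11.61, 11.68 and 11.84 upon OS, with no overlap, and 11.72, 11.62 and 11.43 against 11.35, 11.24 and 11.59 in the high pool, which overlapped. Its shift of −1.43 ± 0.31 (adjusted p = 0.00639, limma) thus came with a rise of 1.23 ± 0.21 in the untranslated pool. The probe also lists the near-identical EIF3CL. EIF3G (−0.75 ± 0.18) likewise rose in the untranslated pool, EIF3F and EIF3H fell in the high pool, and EIF3M (−0.58 ± 0.18) was called in neither alone. EIF3B (−0.57 ± 0.25), EIF3K (−0.32 ± 0.16) and EIF3J (0.50 ± 0.25) were not called.

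The cap-binding complex was divided again. EIF4E (A_32_P203300) read 11.51, 11.34 and 10.83 in the control untranslated pool and 10.21, 10.03 and 9.93 upon OS, without overlap, while its high pool arrays, 8.48, 8.83 and 8.98 against 8.82, 8.89 and 9.14, overlapped. It shifted toward the high pool by 1.35 ± 0.29 (adjusted p = 0.00579, limma), with −1.17 ± 0.20 in the untranslated pool (adjusted p = 0.000331, limma) and 0.18 ± 0.20 in the high pool. The second EIF4E probe had 0.98 ± 0.38 and was not called (adjusted p = 0.121, limma). EIF4E2 shifted toward by 0.58 ± 0.18 on 1 probe and had an uncalled 0.39 ± 0.15 on the other.

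EIF4B shifted away on both probes. On A_23_P60286 it read 11.36, 11.26 and 11.08 in the control high pool and 10.72, 10.59 and 10.27 upon OS, without overlap. EIF4G3 shifted away by −0.70 ± 0.20 on the probe that fell in total RNA, and its other tested probe had 0.11 ± 0.29. EIF4A1 (−0.67 ± 0.22, adjusted p = 0.0594, limma) and EIF4G1 (−0.66 ± 0.24, adjusted p = 0.104, limma) were not called. For EIF4A1 the adjusted p was 0.0284 without the OS low pool array that stood apart. EIF4A3 (−0.21 ± 0.23), which stood at 3.36 between the control pools, EIF4EBP2 (−0.33 ± 0.42), an inhibitor of eIF4E, and EIF5A (0.45 ± 0.22) were not called.

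Of the 7 probes for eIF1, eIF1A, EIF1AD and EIF2A, 4 shifted toward and 0 away, with a median of 0.79. All 4 were for eIF1A genes or the eIF1A-like EIF1AD. EIF1AX (A_24_P237389) read 10.64, 10.52 and 9.96 in the control untranslated pool and 9.71, 9.24 and 9.12 upon OS, and 9.56, 9.82 and 10.06 against 9.84, 10.27 and 9.94 in the high pool. The untranslated arrays did not overlap and the high ones did. The shift was 1.22 ± 0.32 on this probe (adjusted p = 0.0205, limma) and 1.37 ± 0.30 on the other (adjusted p = 0.00736, limma). EIF1AD read 12.02, 11.93 and 12.04 untranslated in control cells against 11.34, 10.82 and 10.96 upon OS and shifted by 0.79 ± 0.18 (adjusted p = 0.00807, limma). EIF1AY was also called toward. EIF1 (0.36 ± 0.13), EIF1B (0.55 ± 0.21) and EIF2A (−0.63 ± 0.74), an alternative carrier of initiator tRNA, were not called. In the untranslated pool 4 of 6 probes of this group fell and 0 rose. In the high pool 0 of 7 were called with limma, 4 being higher at an unadjusted p under 0.05.

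EIF2AK4 had the smallest p of the members in the shift. It read 11.03, 11.20 and 11.13 in the control untranslated pool, 11.78, 11.82 and 11.77 in that of OS cells, 13.56, 13.44 and 13.34 in the control high pool and 12.71, 12.73 and 12.68 upon OS. In both pools the groups were far apart for the spread within them. It rose by 0.67 ± 0.08 in the untranslated pool (adjusted p = 1.22e-05, limma) and fell by 0.74 ± 0.09 in the high pool (adjusted p = 3.04e-05, limma), a shift of −1.41 ± 0.13 (adjusted p = 4.87e-06, limma). EIF2AK2 (−0.15 ± 0.58) and EIF2B2 (−0.17 ± 0.22) were not called.

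LARP1, which binds TOP mRNAs, and LARP4B shifted away, and the other 5 La-related probes were not called. LARP1 read 11.94, 11.98 and 12.15 in the control untranslated pool and 13.27, 13.27 and 13.32 upon OS, and 14.32, 14.44 and 14.24 against 14.67, 13.87 and 14.34 in the high pool. The untranslated arrays differed by more than 1 unit with no overlap, and the high ones overlapped. The shift was −1.30 ± 0.21 (adjusted p = 0.000753, limma). LARP4B moved in both pools, 10.82, 10.68 and 10.84 against 11.03, 11.16 and 11.19 untranslated and 12.68, 12.62 and 12.69 against 12.23, 12.14 and 12.27 high, with a shift of −0.80 ± 0.13 (adjusted p = 0.000909, limma). LARP6, lowest of its family in control cells, had 0.38 ± 0.17.

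The called changes of the cytosolic synthetases upon OS lay in the untranslated and low pools and not in the high pool. Of 14 cytosolic probes 3 shifted away and 0 toward, with a median of −0.57 and 12 of 14 negative, and 6 were called away without the OS low pool array that stood apart. In the untranslated pool 5 of 14 rose, against 15.8% of catalog probes, and 0 fell, against 15.7%. In the high pool 0 of 14 were called with limma, and 0 at an unadjusted p under 0.05. There only 3.57% of catalog probes rose and 2.83% fell, so 0 of 14 called is near the catalog share. In the low pool 5 of 14 rose, against 4.42% of catalog probes, and 0 fell, against 5.45%. AARS, the alanyl enzyme, read 8.23, 7.70 and 8.19 untranslated in control cells and 9.14, 9.20 and 9.33 upon OS, and 11.07, 10.82 and 10.51 against 11.47, 10.51 and 11.14 high. Only the untranslated arrays were apart, and the shift was −0.94 ± 0.29 (adjusted p = 0.0485, limma).

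GARS, which serves cytosol and mitochondria, read 10.91, 11.07 and 11.16 untranslated in control cells and 11.73, 11.89 and 11.96 upon OS, and 13.28, 12.88 and 12.68 against 13.20, 12.90 and 12.86 high. It rose by 0.81 ± 0.13 in the untranslated pool (adjusted p = 0.000182, limma), differed by 0.04 ± 0.14 in the high pool, and shifted by −0.77 ± 0.19 (adjusted p = 0.0159, limma). IARS shifted by −0.67 ± 0.17 on 1 of 3 probes. DARS (−0.60 ± 0.19, adjusted p = 0.0568, limma) and TARS (−0.56 ± 0.19, adjusted p = 0.0773, limma) rose in the untranslated pool, by 0.52 ± 0.13 and 0.74 ± 0.13, but their shifts were not called. LARS had the most positive estimate, 0.46 ± 0.33. None of 7 mitochondrial synthetase probes was called in the shift with limma, and AARS2 had the highest estimate at 1.02 ± 0.51.

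IARS2, the mitochondrial isoleucyl enzyme, was the 1 member that rose in both pools. It read 10.10, 10.08 and 10.15 untranslated in control cells and 11.28, 11.31 and 11.52 upon OS, and 11.08, 10.65 and 10.68 against 11.91, 11.64 and 11.96 in the high pool. No OS array of either pool overlapped the control ones. The rises were 1.26 ± 0.12 (adjusted p = 1.23e-06, limma) and 1.03 ± 0.13 (adjusted p = 4.15e-05, limma), while total RNA differed by −0.09 ± 0.13 and the shift by −0.23 ± 0.19, neither called. NARS2 fell in both, by −0.42 ± 0.09 and −0.37 ± 0.10.

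**Figure D4:**
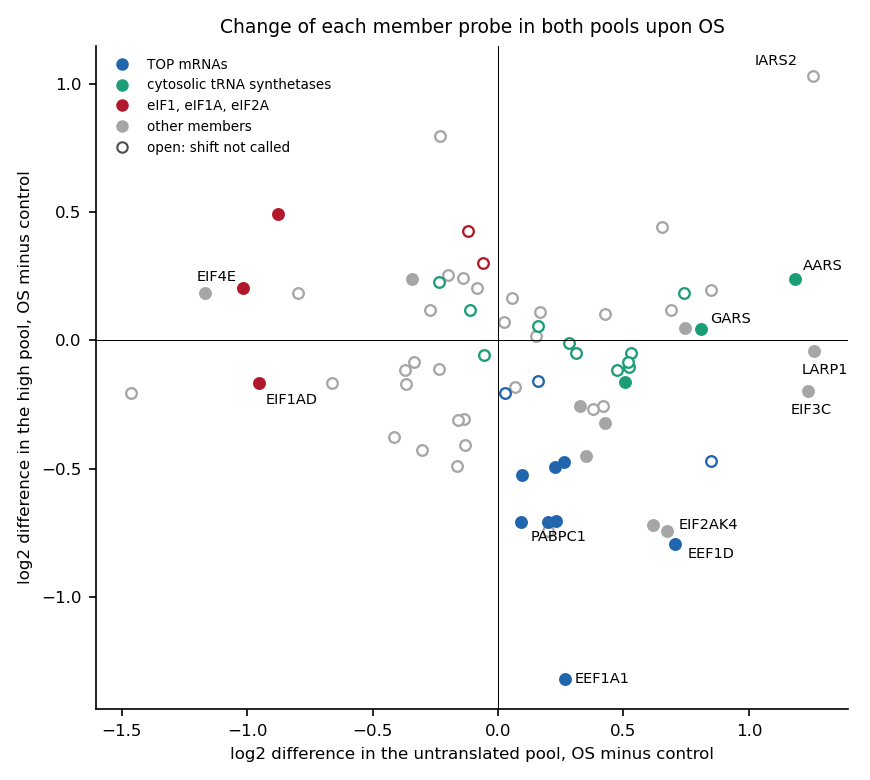
Difference between OS and control in log2 signal in the untranslated pool (horizontal) and in the high pool (vertical) for each member probe tested in both (EIF1AY left out), coloured by group, filled where the shift was called. TOP mRNAs lie low near the middle, cytosolic synthetases along the horizontal axis to the right, EIF1AX and EIF1AD to the left, and IARS2 alone at the upper right.

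The called shifts were then set out by pool. All 6 toward the high pool had a called fall in the untranslated pool and no called change in the high pool. Of the 19 away, 7 had a called rise in the untranslated pool only (EIF4G3, LARP1, GARS, AARS, IARS, EIF3G and EIF3C), 7 a called fall in the high pool only (EIF3F, PABPC1, EIF3H and 2 probes each of EEF1A1 and EIF4B), 3 both (EEF1D, EIF2AK4 and LARP4B) and 2 neither. Over all members, 17 of 72 probes rose in the untranslated pool, against 15.8% of catalog probes, and 11 fell, against 15.7%. In the high pool 1 of 76 rose, against 3.57%, and 11 fell, against 2.83%.

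Between OS and control cells, 13 of 77 member probes tested rose in the low pool, against 4.42% of catalog probes, and 5 fell, against 5.45%. These member counts were 14 and 3 without the OS low pool array that stood apart. Called shifts of members were fewer here than for the high pool. The shift between the low and the untranslated pool was called toward in 2 of 77 probes, against 0.682% of all catalog probes, and away in 4, against 2.46%. Both probes toward were of LARP7, which binds 7SK RNA. On A_24_P332230 it read 11.81, 11.57 and 11.62 untranslated in control cells and 11.39, 11.26 and 11.23 upon OS, and 10.87, 10.80 and 10.77 against 11.12, 11.02 and 11.05 in the low pool. The arrays did not overlap in either pool, and the shifts were 0.62 ± 0.15 (adjusted p = 0.0382, limma) and 0.60 ± 0.15 (adjusted p = 0.0448, limma). The direction turned over with scaling to the 75th percentile, at −0.58 and −0.60, where the catalog median went from −0.18 to −0.94.

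Those away were LARP1 (−0.99 ± 0.22), LARP4B (−0.75 ± 0.14), EEF1D (−0.73 ± 0.16) and EIF2AK4 (−0.62 ± 0.14), each of which also shifted away from the high pool, with the untranslated arrays in common. EEF2K, the eEF2 kinase, had −1.32 ± 0.34 and was not called (adjusted p = 0.0506, limma). Its OS low pool arrays read 9.95, 9.78 and 8.62, the last being the array that stood apart. These calls were few, and leaving out single arrays left 0 to 2 toward and 1 to 6 away. All 6 ended, with 0 each way, in a fit of the groups compared alone, where 0 catalog probes were called. They also ended with 75th percentile scaling, where 0.0921% of catalog probes were called toward and 0.295% away.

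Genes around the machinery were read alongside. Of 59 other regulators of translation 40 had probes, and of the 44 probes tested 11 shifted away, against 8.03% of all catalog probes, and 3 toward, against 8.04%, with a median of −0.20. MTOR, the kinase that drives TOP mRNA translation, shifted by −1.34, and TSC2, its inhibitor, by −1.31. RHEB, the activator of mTOR, shifted the other way by 1.06. In total RNA 1 of the 44, PAIP2, rose by 0.62 and 1, RPTOR, fell by 0.53.

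Targets of the integrated stress response outside the machinery rose in total RNA on 5 of 10 probes, against 3.07% of all catalog probes. Of these targets 0 were lower, against 3.06%. SESN2 rose by 1.67, SLC3A2 by 0.87, TRIB3 by 0.72 and ATF4 by 0.70. The members that are known ATF4 targets, mostly synthetases, had 0 of 11 probes called either way in total RNA, which is near those catalog shares. At an unadjusted p under 0.05 there were also 0, and the median was 0.09. In the shift 3 of the 11 went away, against 8.03% of catalog probes, and 0 toward, against 8.04%, with a median of −0.56. Of the stress response targets 3 shifted toward the high pool and 2 away, with ATF4 at 1.71, SESN2 at 1.00, ASNS, the asparagine synthetase, at −1.04 and SLC7A11, the cystine transporter, at −1.34.

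Not every member could be read. In the shift 9 probes were not tested, since in no group compared were they well above background on all 3 arrays: EIF3A, EIF3E, EIF3IP1, PABPC1L2B, PABPC5, PABPC5-AS1, TARS2, 1 of 3 probes of EIF4E2 and 1 of 3 of EIF4G3. EIF3A and EIF3E are 2 of the TOP mRNAs, and neither had another catalog probe.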

How the data were processed

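Single-color arrays of 24 RNA samples were read in 8 groups of 3, grouped by the deposited labels. The authors deposited the scanner files, in which Feature Extraction (version 10.7.3.1) gives an intensity per spot, less its background. They also deposited a table of log2 values quantile-normalized over all probes, used here as an alternative. The array design gives coordinates on GRCh37, and none of them is printed.

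Following the methods, log2 of the processed signal was quantile-normalized separately for 17448 catalog and 43911 lncRNA probes, after 178 probes marked as outliers on any array (0 of them members) were left out. Group means were fitted with limma 3.58.1 in R 4.3.3 and adjusted by Benjamini-Hochberg over all tested probes of both kinds. The methods state that anomalous replicates were removed without naming them, and all 24 arrays were kept. The arrays lie on 3 slides, each with 1 array of every group. As an alternative, the mean of control untranslated arrays 1 and 2, whose labels share a number, was used in place of both. In the high pool shift it gave 4 member probes toward, against 5.8% of catalog probes, and 16 away, against 7.04%. The steps were tested on simulated data.

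The members, families and gene lists were chosen with earlier results of these data known. Named are 20 central genes and the highest and lowest estimate of each family, with other values for context. Also named are the 5 most positive and 5 most negative called members of each main comparison whose groups do not overlap. For the shifts, overlap was judged on differences between same-numbered arrays of the pools, although the tests did not pair arrays by number. RefSeq entries were matched by accession for 74 of the 85 probes. Alternatives were other normalizations, filters, variance estimates, blocks for slide and replicate number, and leaving out arrays. Of these, 75th percentile scaling without the deviating low pool array, and leaving out control total RNA array 1, alone or with the deviating low pool array, were chosen after seeing the data. The values of 1 further member, which stays in the counts, are not reported here.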

Additional observations from a re-analysis of the deposited data

Results flagged for a closer look

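Members whose 3 OS arrays all lay above the 3 control arrays in one pool and all below them in another, with a called difference in each, stood out, since the change upon OS differed in direction between pools. EEF1D changed by 0.70 in the untranslated and −0.79 in the high pool, a difference of −1.50 between the changes. EIF2AK4 changed by 0.67 and −0.74, a difference of −1.41. LARP4B changed by 0.35 in the untranslated pool, −0.45 in the high pool and −0.40 in the low pool, differences of −0.80 and −0.75 from the untranslated pool. These differences restate the changes by which the members were picked and are given with no test. Groups of 3 arrays were too small for a test of single outlying arrays.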

How the results depend on the processing

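Of the values of called members named above, each recomputed under the alternatives run for its comparison, 884 kept their direction and call, 166 kept their direction but were no longer called, and 8 turned over. Those that turned over did so under 75th percentile scaling: the low pool shift of LARP7 (−0.60 and −0.58) and, in control cells, high against untranslated, with and without the deviating low pool array, EIF5A (0.78), EEF1A1 on probe A_24_P763243 (−0.12) and EIF3J (0.82). This scaling moved the median of all catalog probes from −0.02 to −0.19 in total RNA and from 0.35 to 1.64 between control pools. The catalog median went from 0.02 to −0.08 in the high pool shift and from −0.18 to −0.94 in the low pool shift. Single probes did not all move by the same amount. Counts of called members changed as follows, in the order higher then lower. In total RNA (0 and 2), the second count was 0 with 75th percentile scaling, 5 with that scaling and without the deviating low pool array, 6 without that array alone, 1 without the filter on dim probes, 4 without moderated variances, and 4 with normexp, while an unadjusted p under 0.1 without moderation gave 8 and 8, the groups compared alone 3 and 11, and leaving out each array 0 and 0 to 1. Between control pools (40 and 20), the second count was 2 with 75th percentile scaling, 8 without the deviating array as well, and 11 with normexp and with quantile normalization over all probes, with 37 to 40 and 17 to 19 upon leaving out each array. In the high pool shift (6 and 19), 75th percentile scaling gave 0 and 0, that scaling without the deviating array 2 higher, leaving out both deviating arrays 10 higher and 27 lower, no filter on dim probes 8 lower, and leaving out each array 4 to 6 and 13 to 20. In the low pool shift (2 and 4), the first count was 0 with 75th percentile scaling with or without the deviating array, without the filter, with normexp, with quantile normalization over all probes, with the groups compared alone and with the mean of control untranslated arrays 1 and 2, and 1 without control total RNA array 1, the second was 0, 1, 0 and 2 with that scaling, no filter, the groups alone and that mean, and leaving out each array gave 0 to 2 and 1 to 6. No filter adds probes to the adjustment, and fewer arrays leave fewer degrees of freedom, while the cause of the other changes was not tested. Same-numbered arrays did not deviate together in every pair (correlations in total RNA 0.05, −0.00 and 0.10), so the replicate numbers were not taken to pair arrays, and a replicate block gave 0 and 2, 40 and 20, 6 and 19, and 2 and 5. Dim probes are the limit of depth, since 9 members in the shift had no group well above background on all arrays.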
